A study of Mus musculus with 31 samples.

Results

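The genes of brain endothelial cells and of the mural cells around them were examined in caudate putamen (CPu), the dorsal striatum, of 31 mice. The 40 genes were chosen by name as known vascular genes, by a rule that uses no value although earlier results of these data were known, and all 40 were found among the 52636 genes of the expression table and passed the filter on low values in every comparison. They comprise 31 endothelial genes, of which 10 are junction and surface genes, 7 receptors, 3 secreted factors and enzymes, 6 transporters and 5 transcription factors, and 9 mural genes, of which 6 mark pericytes and 3 smooth muscle.

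The mice were labelled as females of the strain C57BL/6NTac-Brd1, 8 to 11 weeks old, and either were wild type (WT) or carried one deleted copy of part of Brd1 (Brd1+/-), a gene for a chromatin reader protein. All Brd1+/- mice are of a single targeted line. They were injected with saline (vehicle) or with the antidepressant imipramine (IMN) at 10 mg/kg, giving 8 WT vehicle, 7 Brd1+/- vehicle, 8 WT IMN and 8 Brd1+/- IMN mice. RNA came from a punch of CPu and represents all its cell types together, so that fewer vascular cells and less RNA per cell cannot be told apart. Gene positions are given on GRCm38. Values are TPM, a transcript abundance that is scaled to gene length and to a fixed sum in each mouse.

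Endothelial cells of brain capillaries are sealed to each other by tight junctions and carry nutrients inward and drugs outward through dedicated transporters, which together form the blood-brain barrier. Pericytes share the basement membrane of the capillary endothelium and depend on PDGF-B released by it, while smooth muscle cells wrap arterioles and set their diameter. Transcription factors of the SoxF group, Sox7, Sox17 and Sox18, and of the ETS group, among them Erg and Ets1, direct endothelial gene programs. VEGF signals to endothelial cells through Kdr, also named VEGFR2.

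Brd1 itself, the targeted gene, was at 22.5 ± 2.97 TPM (SD, n = 8) in WT vehicle mice and at 13.4 ± 2.02 TPM (SD, n = 7) in Brd1+/- vehicle mice (exact permutation p = 0.000155, two-sided, as for each such test here, and the lowest value that 15 mice permit). Under IMN it was at 19.9 ± 2.67 TPM (SD, n = 8) and 12.8 ± 1.04 TPM (SD, n = 8), respectively (exact permutation p = 0.000155). Some WT vehicle libraries stood apart. In 4 of them (mice 1, 2, 4 and 5) the summed TPM of 10 striatal neuron markers lay between 293 and 3535, below 0.5 of the median of 8910 over all mice, and the 10 cortical neuron markers were summed at 2460 to 5600 TPM in the WT vehicle group against 902 to 3640 TPM in the others. WT vehicle mouse 7, labelled female, had 26.8 TPM summed over 4 Y-linked genes, against at most 0.19 TPM in any other mouse. Comparisons with WT vehicle mice were also fitted without the 4 mice low in striatal markers, a setting chosen after the data were seen. WT vehicle mouse 7 was kept in those fits and was left out only where each mouse was left out in turn. Under vehicle all 10 cortical genes were below 0 in Brd1+/- against WT mice (median -1.94 on the log2(TPM + 1) scale) and all 10 striatal genes above 0 (median 1.63), and with IMN in WT mice the medians were -1.94 and 1.48, with all 10 genes of each list again on 1 side. With IMN in Brd1+/- mice these medians were -0.09 and -0.19. There 3 of 10 cortical genes and 0 of 10 striatal genes were above 0, and 1 striatal gene was called lower. In the same comparison 10 of 10 oligodendrocyte genes were above 0 (median 0.48, beside 0.01 for all genes). The part of these differences in the results on vascular genes was not tested beyond the fits given here.

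All 40 genes were detected in all 31 mice. The highest median over all mice was that of Jcad, a junction-associated protein, at 84.6 TPM, followed by the glucose transporter gene Slc2a1 at 71.6 TPM, the pericyte gene Vtn at 54.3 TPM, Ly6c1 at 43.8 TPM and the pericyte gene Rgs5 at 38.8 TPM. The lowest were those of Ets1 at 2.14 TPM, Ocln at 2.02 TPM, Kdr at 1.80 TPM, Myh11 at 1.59 TPM and Sox7 at 0.861 TPM. The ranges of neighbours in this order overlapped. Slc2a1 was also among the steadiest genes, with a highest mouse 1.56-fold above the lowest and a coefficient of variation of 11.3% over all mice. Slc2a1, Slc16a1 and Cspg4 are also expressed by glia, and Jcad levels moved with striatal neuron markers, as given further on.

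The tight junction gene Cldn5, the main claudin of brain endothelium, had group medians between 14.6 and 19.7 TPM, and Pecam1, an adhesion molecule of the endothelial surface, between 10.8 and 13.1 TPM. Rgs5, a regulator of G protein signaling in pericytes, had medians between 38.2 and 40.8 TPM, and Pdgfrb, the receptor for PDGF-B, between 5.74 and 6.51 TPM. The defining genes of endothelium and pericytes were thus present in every group. The contractile genes had the widest span from lowest to highest mouse, while the coefficient of variation was highest for Abcg2 at 47.0%. Over all mice Tagln ranged from 0.985 to 19.1 TPM, Myh11 from 0.298 to 3.01 TPM and Acta2, smooth muscle actin, from 3.34 to 16.9 TPM. The lowest value of each of these was that of WT vehicle mouse 1.

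The mean log2(TPM + 1) of the 31 endothelial genes was 3.34 ± 0.09 (SD, n = 8) in WT vehicle, 3.39 ± 0.10 (SD, n = 7) in Brd1+/- vehicle, 3.27 ± 0.07 (SD, n = 8) in WT IMN and 3.29 ± 0.11 (SD, n = 8) in Brd1+/- IMN mice. The mean of the 9 mural genes was 3.07 ± 0.18, 3.31 ± 0.16, 3.15 ± 0.12 and 3.23 ± 0.16 in the same groups. Mice of all groups overlapped on both measures. The endothelial mean exceeded the mural mean by 0.27 ± 0.18 in WT vehicle mice and by 0.08 ± 0.14 in Brd1+/- vehicle mice. Among mural genes, the 3 of smooth muscle averaged 2.45 ± 0.66 and 3.01 ± 0.34 in these groups, and the 6 of pericytes 3.38 ± 0.14 and 3.45 ± 0.07. In the 4 WT vehicle mice not low in striatal markers the mural mean was 3.19 ± 0.12, the smooth muscle mean 2.82 ± 0.21 and the excess of the endothelial mean 0.16 ± 0.09 (SD, n = 4). No test was made on these means, which describe the groups in the values as deposited. In these values the median change of the endothelial genes was -0.05 with IMN in WT mice and 0.08 between genotypes under vehicle. After median-of-ratios scaling the 2 medians were 0.05 and 0.23, and after quantile scaling 0.05 and 0.25.

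**Figure D1:**
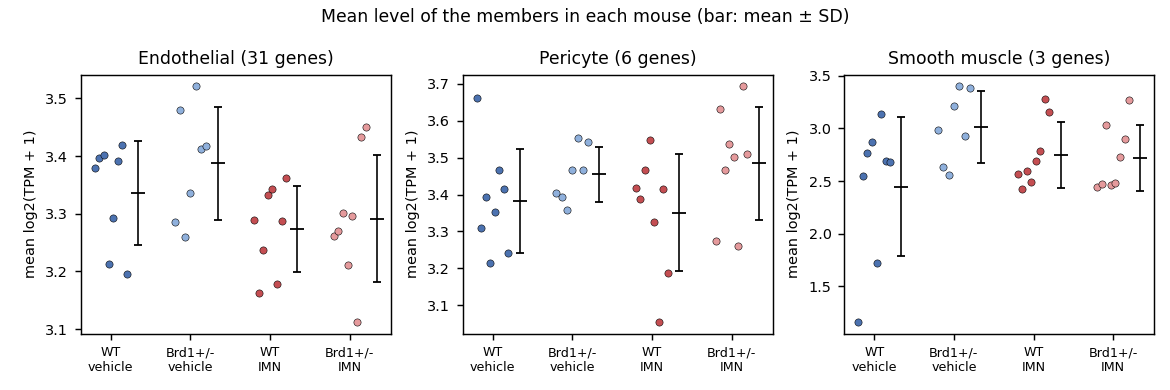
Mean log2(TPM + 1) of the endothelial, pericyte and smooth muscle genes (vertical axes, each with its own scale) in each mouse by group (horizontal axes), with the group mean and SD beside the points. The smooth muscle mean of WT vehicle mice is spread from 1.16 to 3.14, wider than in the other groups.

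The effect of IMN was first examined in each genotype separately, 2 comparisons that share no mice. A gene was called at an unadjusted limma p under 0.01, the nominal threshold of the study, and p-values of single genes within a pair of groups are given here from exact permutation tests on log2(TPM + 1), beside the limma p adjusted over all genes. In WT mice 3 members fell with IMN and 0 rose, where 6.95% of all 23579 genes tested were called in either direction and 5.6% as lower. After median-of-ratios or quantile scaling 2 members fell in WT mice, Egfl7 and Sox18, and 3 rose, Abcb1a, Mfsd2a and Slc2a1, and 49.9% rather than 80.6% of all calls were lower after the former. In Brd1+/- mice 4 members fell and 0 rose, where 1.83% of 23020 genes were called and 0.964% as lower. Sox18 was the single member called in both genotypes. Over all genes tested in both, 39 of 22626 were called in both in the same direction, which is 2.44% of the calls in WT and 9.4% of those in Brd1+/- mice. No member was called at an FDR of 5% in either genotype, where limma called 1 gene in WT mice (0.00424%) and 0 genes in Brd1+/- mice. Single mice moved these counts. In WT mice 2459 genes passed without WT vehicle mouse 8, Sox18 and Egfl7 among them, and 1176 without WT vehicle mouse 6, with Sox18, and in Brd1+/- mice 6 genes passed without vehicle mouse 1, with Sox18. At an unadjusted p under 0.05 there were 7 members in each, beside 23.1% of all genes in WT and 7.09% in Brd1+/- mice.

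Sox18 (chr2:181669836-181671640), a SoxF transcription factor of developing and adult endothelium, gave the clearest separation. In WT vehicle mice its lowest, median and highest levels were 6.96, 9.25 and 13.7 TPM, and in WT IMN mice 5.35, 6.21 and 6.78 TPM. Every WT IMN mouse lay below every WT vehicle mouse, a separation that 0.144% of all genes tested showed in this comparison. In Brd1+/- mice the levels were 6.62, 9.31 and 13.1 TPM under vehicle and 3.80, 5.81 and 6.85 TPM under IMN, and 6 of 8 IMN mice lay below every vehicle mouse. The mean under IMN was 63.7% of that under vehicle in WT and 54.5% in Brd1+/- mice. On the log2(TPM + 1) scale, which understates changes of low genes, Sox18 fell by 0.55 ± 0.11 (SE) in WT (exact permutation p = 0.000155, the smallest possible; limma adjusted p = 0.135, rank 20 of 23579) and by 0.77 ± 0.14 (SE) in Brd1+/- mice (exact permutation p = 0.000466; limma adjusted p = 0.171, rank 7 of 23020). The change did not differ detectably between the genotypes, with an interaction of -0.21 and a 95% interval from -0.58 to 0.16 (limma, adjusted p = 0.566). Without the 4 WT vehicle mice low in striatal markers, the change in WT was -0.56 (exact permutation p = 0.00202, the smallest that 4 against 8 mice allow).

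After these values were seen, IMN was also compared with vehicle over all 31 mice with genotype as a term. In this fit 6 members fell and 2 rose, where 5.49% of 25394 genes were called, 4.18% as lower and 1.31% as higher. After median-of-ratios scaling 3 members fell and 2 rose, after quantile scaling 3 fell and 3 rose, and 50.7% and 51.2% rather than 76.2% of all calls were lower. Sox18 fell by 0.66, with a 95% interval from -0.84 to -0.47 (limma, n = 31, p = 4.02e-08, adjusted p = 0.00051, rank 2 of 25394), and was the single member among the 107 genes (0.421%) under an FDR of 5%. In the 27 mice left without those 4 it fell by 0.68 (limma, n = 27, adjusted p = 0.0019). Of the 5 endothelial transcription factors 3 fell, Sox18, Sox7 and Ets1, while Sox17 at -0.19 and Erg at -0.01 were not called. Of the 40 members 16 had a change above 0, beside 38.8% of all genes, and the median change was -0.03 both for the members and for all genes.

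**Figure D2:**
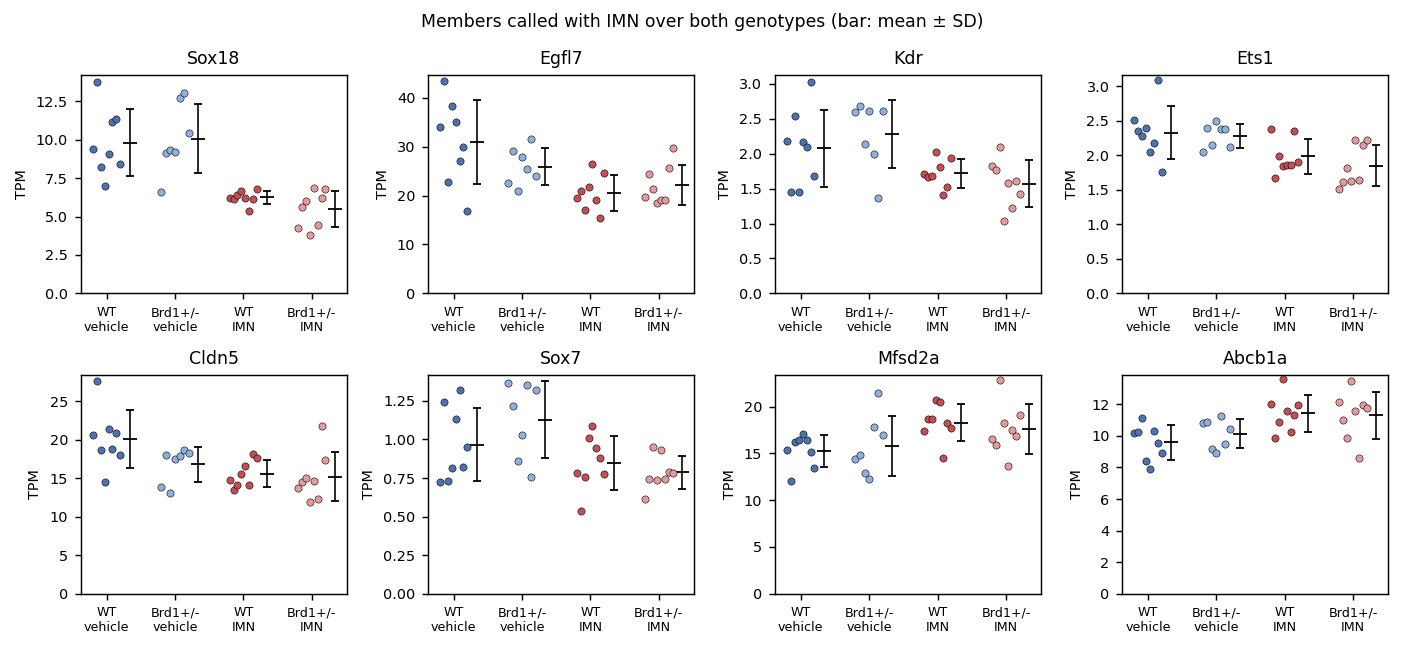
TPM in each mouse (vertical axes, starting at 0) by group (horizontal axes) for the 8 members called with IMN over both genotypes, with the group mean and SD beside the points. Sox18 lies at 6.85 TPM or lower in all 16 IMN mice, and 14 of the 15 vehicle mice lie above that level.

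Sox7, another SoxF factor, and Ets1, an ETS factor, were low in all mice. Sox7 had medians of 0.888 and 0.831 TPM in WT vehicle and WT IMN mice, and of 1.21 and 0.764 TPM in Brd1+/- vehicle and Brd1+/- IMN mice. It fell by 0.25 ± 0.08 (SE) in Brd1+/- mice (exact permutation p = 0.00559; limma adjusted p = 0.52). Over both genotypes it fell by 0.16 ± 0.06 (limma, n = 31, p = 0.00734, adjusted p = 0.162). Ets1 had medians of 2.32 and 1.89 TPM in WT and of 2.39 and 1.73 TPM in Brd1+/- mice, and 5 of the 8 Brd1+/- IMN mice lay below every Brd1+/- vehicle mouse. It fell by 0.18 ± 0.06 (SE) over both genotypes (limma, n = 31, p = 0.00284, adjusted p = 0.123) and was called in neither genotype alone. Without the 4 WT vehicle mice the changes over both genotypes were -0.18 for Sox7 and -0.18 for Ets1 (limma, n = 27, p = 0.0083 and p = 0.00727), both still past the threshold. Over both genotypes neither gene was called after median-of-ratios or quantile scaling, Sox7 also not with a pseudocount of 0.1, the mouse number as a block or the striatal mean as covariate, and Ets1 not with the cortical mean. Leaving out any 1 of 10 of the 15 mice also ended the call of Sox7 in Brd1+/- mice, with p up to 0.0178 (limma), and any 1 of 15 of the 31 mice that over both genotypes. In Brd1+/- mice Sox7 was called after both scalings but not with a pseudocount of 0.1, a mean of at least 1 TPM (which left Sox7 out), the mouse number as a block or the striatal mean.

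Kdr (chr5:75932827-75978458), the main receptor for VEGF on endothelium, had levels of 1.37, 2.60 and 2.69 TPM (lowest, median and highest) in Brd1+/- vehicle mice and of 1.04, 1.60 and 2.09 TPM in Brd1+/- IMN mice. In WT mice the levels were 1.45, 2.14 and 3.03 TPM under vehicle and 1.40, 1.69 and 2.02 TPM under IMN. All 8 IMN mice of each genotype were below the median of their vehicle group, while the groups overlapped. Kdr fell by 0.35 ± 0.11 (SE) in Brd1+/- mice (exact permutation p = 0.00948; limma adjusted p = 0.52), a call that was lost without any 1 of 8 of the 15 mice, with the mouse number as a block and with the striatal mean as covariate. Over both genotypes it fell by 0.25 ± 0.08 (limma, n = 31, p = 0.00257, adjusted p = 0.119). Leaving out the 4 WT vehicle mice, the change over both was -0.32 (limma, n = 27, p = 0.000359). The other 6 receptors, the VEGF receptor Flt1, the angiopoietin receptor Tek, its relative Tie1, the phosphatase Ptprb, the TGF-β coreceptor Eng and the guidance receptor Robo4, were not called in any comparison of the values as deposited. After median-of-ratios and quantile scaling Ptprb and Tie1 were called higher in Brd1+/- mice over both treatments, and Ptprb also under vehicle after quantile scaling.

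Egfl7 (chr2:26580014-26593120), a protein that endothelium secretes into the vessel wall, had levels of 16.9, 32.0 and 43.3 TPM in WT vehicle mice and of 15.4, 20.2 and 26.5 TPM in WT IMN mice. In Brd1+/- mice they were 20.9, 25.4 and 31.6 TPM under vehicle and 18.5, 20.5 and 29.8 TPM under IMN. It fell by 0.53 ± 0.16 (SE) in WT mice (exact permutation p = 0.0101; limma adjusted p = 0.141). Over both genotypes it fell by 0.38 ± 0.11 (limma, n = 31, p = 0.000985, adjusted p = 0.0851). The 4 highest WT vehicle values were those of the mice low in striatal markers, and without these mice the change in WT was -0.21 (exact permutation p = 0.244). Over both genotypes it was -0.22 (limma, n = 27, p = 0.0292), and neither call held.

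Cldn5 (chr16:18776847-18778262) had levels of 14.5, 19.7 and 27.7 TPM in WT vehicle and of 13.5, 15.2 and 18.2 TPM in WT IMN mice, and of 13.2, 18.0 and 18.7 TPM in Brd1+/- vehicle and 11.9, 14.6 and 21.8 TPM in Brd1+/- IMN mice. It fell by 0.33 ± 0.11 (SE) in WT mice (exact permutation p = 0.00528; limma adjusted p = 0.141). Over both genotypes it fell by 0.24 ± 0.08 (limma, n = 31, p = 0.00454, adjusted p = 0.141). Without the 4 mice the change in WT was -0.28 (exact permutation p = 0.00808), just short of the threshold in limma, and that over both genotypes was -0.20 (limma, n = 27, p = 0.0139), so that neither call held. Both calls were also lost after median-of-ratios and quantile scaling and with either neuron mean as covariate. That in WT was lost as well with the mouse number as a block and without any 1 of 7 of the 16 mice.

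Of the 6 transporters of the barrier 2 rose over both genotypes. Mfsd2a, a carrier of lysolipids that brain endothelium uses to take up omega-3 fatty acids, had medians of 15.8 and 18.4 TPM in WT vehicle and WT IMN mice and of 14.8 and 17.2 TPM in Brd1+/- vehicle and Brd1+/- IMN mice. In WT mice 7 of 8 IMN mice exceeded every vehicle mouse. Mfsd2a rose by 0.20 ± 0.07 (SE) (limma, n = 31, p = 0.0079, adjusted p = 0.167). Abcb1a, the drug efflux pump P-glycoprotein, had medians of 9.86 and 11.4 TPM in WT and of 10.5 and 11.7 TPM in Brd1+/- mice, and 5 of 8 IMN mice of each genotype exceeded every vehicle mouse of that genotype. Abcb1a rose by 0.19 ± 0.06 (SE) (limma, n = 31, p = 0.00278, adjusted p = 0.122). In each genotype alone neither was called by limma, although in WT mice both were without a filter, without a variance trend and after either scaling, and exact permutation gave p = 0.00637 for Mfsd2a and p = 0.00528 for Abcb1a in WT mice and p = 0.223 and p = 0.115 in Brd1+/- mice. Without the 4 WT vehicle mice the changes were 0.19 for Mfsd2a and 0.15 for Abcb1a (limma, n = 27, p = 0.0214 and p = 0.0171), past the threshold in neither case. The call of Mfsd2a was also lost with either neuron mean as covariate, with the mouse number as a block, with sample quality weights and without any 1 of 16 of the 31 mice. The related efflux gene Abcb1b had a median of 2.19 TPM, and reads that fit both genes could have been split between them. Slc2a1, Slco1a4, the monocarboxylate carrier Slc16a1 and the efflux pump Abcg2 were not called with IMN in the values as deposited. Slc2a1 was called higher in WT mice after median-of-ratios and quantile scaling, and over both genotypes after quantile scaling.

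Jcad was called with IMN in Brd1+/- mice. Its levels were 84.8, 105 and 125 TPM in Brd1+/- vehicle and 54.1, 80.0 and 99.2 TPM in Brd1+/- IMN mice, and in WT mice 33.4, 76.9 and 101 TPM under vehicle and 64.3, 77.3 and 84.6 TPM under IMN. The Brd1+/- vehicle group stood highest, while WT vehicle mice were the most scattered. Jcad fell by 0.42 ± 0.12 (SE) in Brd1+/- mice (exact permutation p = 0.00575; limma adjusted p = 0.415). The interaction with genotype, -0.51 with a 95% interval from -0.98 to -0.05, was not called (limma, adjusted p = 0.281), and without the 4 WT vehicle mice it was -0.11 (limma, n = 27, adjusted p = 0.999). In WT mice the change was 0.09, and without the 4 WT vehicle mice it was -0.32 (exact permutation p = 0.00202, the smallest possible), and Jcad was then called as lower by limma in WT mice and over both genotypes. With the mean of striatal neuron markers as a covariate the change in Brd1+/- mice was -0.23 and was no longer called (limma, adjusted p = 0.83). Under the same covariate Jcad was called as lower in WT mice and over both genotypes. The call in Brd1+/- mice was also lost with all 4 groups in one fit. Across the 31 mice, with group means removed, Jcad rose and fell with the mean of the striatal markers (Pearson r = 0.847, permutation p = 1e-05, adjusted p = 4e-05; Spearman rho = 0.754, permutation p = 1e-05, adjusted p = 4e-05; both p the smallest that 100000 permutations give). Without the 2 mice farthest from the median, r was 0.681, and in single groups r ranged from -0.291 to 0.974. This was 1 of 8 relations computed across mice, over which all adjusted p of correlations were taken.

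With IMN 0 of the 9 mural genes were called by limma in either genotype or over both, and at an unadjusted p under 0.05 there were Vtn, in WT mice and over both genotypes, and Tagln, in Brd1+/- mice. Rgs5 had levels of 34.7, 40.8 and 48.8 TPM in WT vehicle and 33.6, 40.02 and 44.8 TPM in WT IMN mice, and of 31.2, 40.2 and 43.9 TPM in Brd1+/- vehicle and 33.5, 38.2 and 46.6 TPM in Brd1+/- IMN mice. These ranges nearly coincided. The change over both genotypes was -0.03 with a 95% interval from -0.14 to 0.09 for Rgs5, 0.01 from -0.13 to 0.15 for Pdgfrb and -0.06 from -0.38 to 0.26 for Acta2, and the interval of Acta2 was the widest of the 3. Pecam1 changed by 0.01, from -0.17 to 0.19, and Slc2a1 by 0.08, from -0.04 to 0.20. The erythrocyte genes Hba-a1 and Hba-a2, of 5 examined as a measure of blood in the punch, fell with IMN in WT mice and over both genotypes. Their list summed to 211 to 403 TPM in WT vehicle, 163 to 323 TPM in WT IMN, 216 to 546 TPM in Brd1+/- vehicle and 205 to 535 TPM in Brd1+/- IMN mice. With IMN in WT mice 9 of 10 microglia and macrophage genes were above 0 (median 0.16, beside -0.08 for all genes) with 1 called higher, Cd163, and Igf2 of 9 fibroblast and meninges genes and Kl of 3 choroid plexus and ependymal genes tested rose as well. Over both genotypes Cd163 and Kl were called higher, and in Brd1+/- mice 0 genes of these 3 lists. Whether blood content or these cell types bear on the endothelial changes was not tested.

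**Figure D3:**
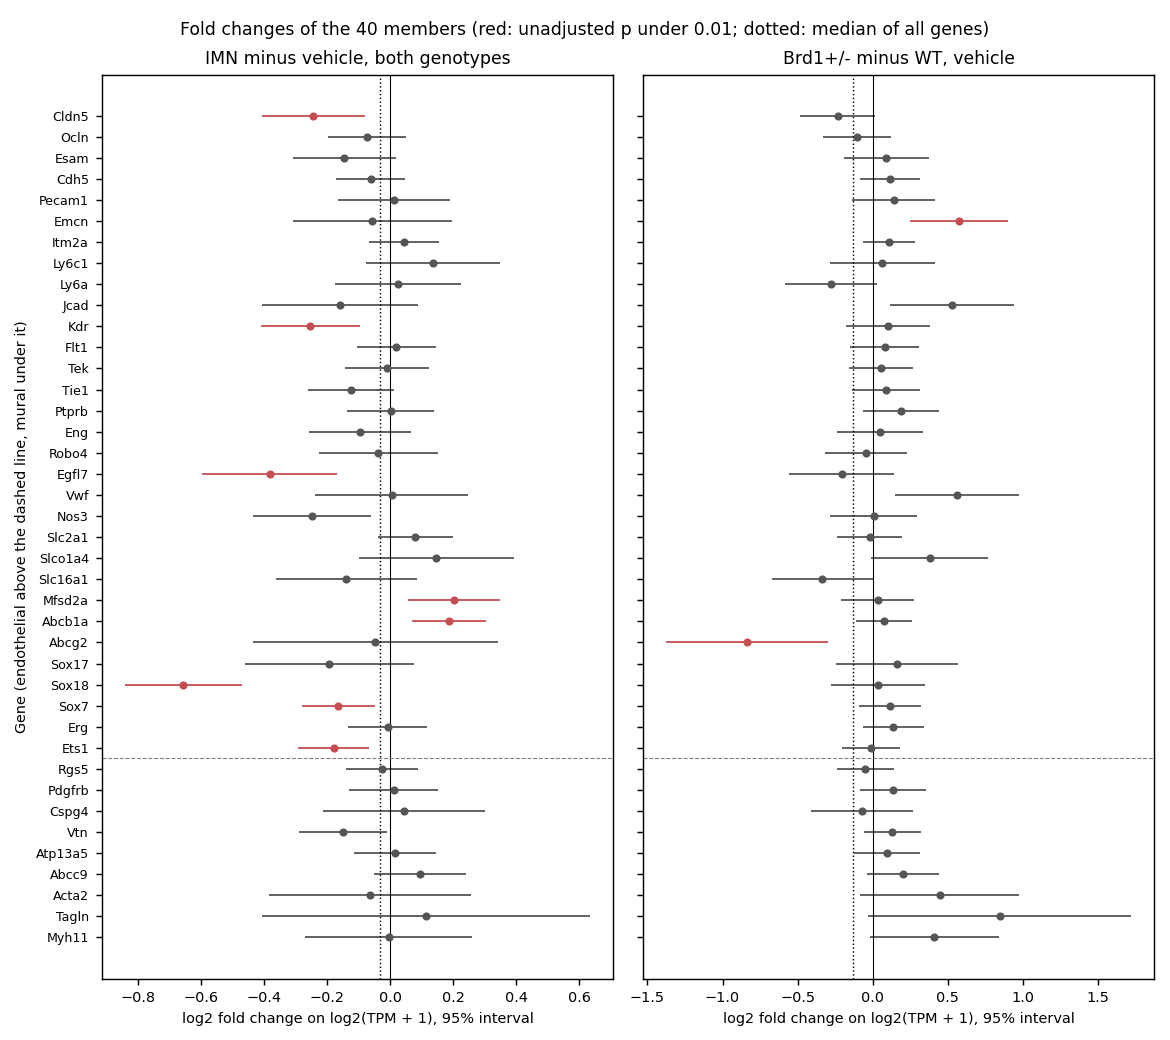
Change of each of the 40 members on the log2(TPM + 1) scale with its 95% interval (horizontal axes), for IMN against vehicle over both genotypes (left) and for Brd1+/- against WT under vehicle (right), one gene per line. The dotted line is the median of all genes, at -0.03 on the left and -0.13 on the right. Sox18 lies farthest from 0 on the left at -0.66, and mural intervals on the left all include 0 except that of Vtn.

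The stretches upstream of 3 of the genes that fell are shown, since genes of ETS and SoxF factors were among the members that fell. The RefSeq promoter table for GRCm38.p6 held 25 of the 40 members and 5 of the 8 called with IMN over both genotypes, and lacked Sox18, Ets1 and Sox7. Each sequence runs 5′ to 3′ on the strand of the gene, from 250 to 51 bases before its start, the most upstream start where several were listed. Capitals mark GGAAG, the core that ETS factors prefer, or its complement CTTCC, and would also mark ACAAT or its complement ATTGT, a core of Sox sites. The ETS and Sox letters cannot overlap each other. The windows are chr2:26580833-26581032 on the plus strand for Egfl7, chr5:75978506-75978705 on the minus strand for Kdr and chr16:18776597-18776796 on the plus strand for Cldn5. The first lies inside the annotated span of the Egfl7 gene, which has other starts.
Egfl7: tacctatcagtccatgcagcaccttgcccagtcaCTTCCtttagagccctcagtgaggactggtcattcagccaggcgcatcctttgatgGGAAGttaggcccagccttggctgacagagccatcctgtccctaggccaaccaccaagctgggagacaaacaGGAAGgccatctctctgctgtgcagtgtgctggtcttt
Kdr: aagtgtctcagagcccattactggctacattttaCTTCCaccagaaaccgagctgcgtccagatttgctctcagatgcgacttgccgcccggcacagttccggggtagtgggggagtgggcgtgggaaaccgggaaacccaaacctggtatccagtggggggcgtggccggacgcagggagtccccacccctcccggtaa
Cldn5: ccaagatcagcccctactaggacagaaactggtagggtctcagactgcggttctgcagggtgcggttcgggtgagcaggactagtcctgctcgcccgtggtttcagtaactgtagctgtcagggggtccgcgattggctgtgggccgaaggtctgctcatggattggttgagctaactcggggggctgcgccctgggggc
Egfl7 held 3 such ETS cores, Kdr 1 and Cldn5 0, where 55.0% of 32851 promoter windows of the same length held at least 1. The Sox core was in none of these windows, and 23.7% of all windows held it. The same search in the windows of the genes that rose gave 0 ETS cores for Mfsd2a and 2 for Abcb1a, whose window (chr5:8566841-8567040) lies far upstream of the annotated span of the gene (chr5:8660077-8748575).

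Brd1+/- mice were compared with WT mice under each treatment, which asks how the vascular genes stood with reduced Brd1. Under vehicle, 1 member rose and 1 fell, where 13.6% of 23200 genes were called, 1.47% as higher and 12.1% as lower. The median change of all genes was -0.13 and that of the members 0.09, and 29 of 40 members were above 0 beside 27.2% of all genes. After median-of-ratios scaling, which removes that shift, 7 members were called, all of them higher (Cdh5, Emcn, Itm2a, Jcad, Pdgfrb, Vtn and Vwf), and 55.6% rather than 89.2% of the genes called over the whole table were lower. When the 4 WT vehicle mice were left out, 205 genes in all and 0 members were called. At an FDR of 5% limma called 0 genes, members included, but 5482 genes without WT vehicle mouse 8, with Emcn, Abcg2 and Jcad among them, and 4563 without WT vehicle mouse 6, with Emcn and Abcg2. With all mice 5 members had an unadjusted p under 0.05, beside 30.9% of all genes. Under IMN, limma called 0 members where it called 0.703% of 23339 genes, 0 members had an unadjusted p under 0.05, beside 3.92% of all genes, and the members' median change was 0.03.

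Emcn (chr3:137341067-137432185), endomucin, a sialoglycoprotein of capillary and venous endothelium, had levels of 3.35, 4.84 and 6.52 TPM in WT vehicle mice and of 5.86, 7.04 and 10.3 TPM in Brd1+/- vehicle mice. All 7 Brd1+/- mice were above the WT median, and 4 were above every WT mouse. Emcn rose by 0.57 ± 0.15 (SE) (exact permutation p = 0.00233; limma adjusted p = 0.0556). Under IMN the medians were 5.25 and 5.74 TPM, and the difference of 0.14 was not called (exact permutation p = 0.457). Abcg2 (chr6:58584523-58695676), the breast cancer resistance protein that exports drugs, had levels of 3.79, 10.2 and 14.7 TPM in WT vehicle mice and of 3.55, 4.41 and 9.67 TPM in Brd1+/- vehicle mice. All 7 Brd1+/- mice were below the WT median. Abcg2 fell by 0.84 ± 0.25 (SE) (exact permutation p = 0.0132; limma adjusted p = 0.0592), and under IMN its difference of -0.22 was not called (exact permutation p = 0.421). For neither gene was the difference between treatments called (interaction in limma, adjusted p = 0.356 for Emcn and adjusted p = 0.403 for Abcg2). Without the 4 WT vehicle mice low in striatal markers the differences under vehicle were 0.36 for Emcn (exact permutation p = 0.0576) and -0.82 for Abcg2 (exact permutation p = 0.0424), and neither call held. Both calls were also lost with either neuron mean as covariate, and that of Abcg2 after median-of-ratios and quantile scaling. Across the 31 mice Emcn fell as the mean of cortical neuron markers rose (group means removed, Pearson r = -0.499, permutation p = 0.00423, adjusted p = 0.00677; Spearman rho = -0.519, permutation p = 0.00312, adjusted p = 0.00499; r = -0.449 without the 2 farthest mice). For Abcg2 the same relation was not past the threshold (Pearson r = 0.29, permutation p = 0.113; Spearman rho = 0.169, permutation p = 0.363).

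Vwf (chr6:125546774-125686679) encodes von Willebrand factor, a clotting protein that endothelium stores and releases. Its levels were 1.49, 2.45 and 4.04 TPM in WT vehicle and 1.99, 3.49 and 6.59 TPM in Brd1+/- vehicle mice, and 1.62, 2.61 and 4.15 TPM in WT IMN and 2.86, 3.22 and 4.72 TPM in Brd1+/- IMN mice. Under vehicle 6 of 7 and under IMN 8 of 8 Brd1+/- mice lay above the WT median. The difference was 0.56 under vehicle (exact permutation p = 0.0182) and 0.28 under IMN (exact permutation p = 0.0553), called in neither, although 7 of the 12 alternatives under vehicle called it, among them both scalings. In a fit over both treatments, added after these values were seen, Vwf rose by 0.41, with a 95% interval from 0.17 to 0.65 (limma, n = 31, p = 0.00157, adjusted p = 0.0714). Without the 4 WT vehicle mice it rose by 0.43 (limma, n = 27, p = 0.00222). In the fit over all mice 2 members, Vwf and Emcn, were called higher and 0 lower (13 higher and 0 lower after median-of-ratios scaling, 12 and 0 after quantile scaling, with 37 of 40 members above 0 in each), where 10.1% of 25394 genes were called, 0.776% as higher and 9.33% as lower. Under IMN the 5 erythrocyte genes were all above 0 in Brd1+/- against WT mice (median 0.49, beside -0.03 for all genes), with 1 called, Alas2, and their part in the difference of Vwf was not tested. Emcn was no longer called without the 4 mice, with a difference of 0.22 (limma, n = 27, p = 0.0875).

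Of the class-defining genes, none was called between genotypes in the values as deposited, while Pdgfrb was called higher under vehicle and over both treatments after median-of-ratios or quantile scaling. Under vehicle the differences were -0.23 for Cldn5, 0.14 for Pecam1, 0.10 for Kdr, 0.13 for Pdgfrb and 0.44 for Acta2. Slc2a1 at -0.02 and Rgs5 at -0.05 turned to 0.17 and 0.14 after median-of-ratios scaling. Acta2 had levels of 3.34, 8.76 and 11.7 TPM in WT vehicle and of 5.67, 11.0 and 16.9 TPM in Brd1+/- vehicle mice, with a 95% interval of the difference from -0.09 to 0.97, and without the 4 WT vehicle mice the difference was 0.25 (exact permutation p = 0.339). The WT vehicle mice with the least Acta2, at 3.34 and 4.50 TPM, were mice 1 and 5, both low in striatal markers.

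**Figure D4:**
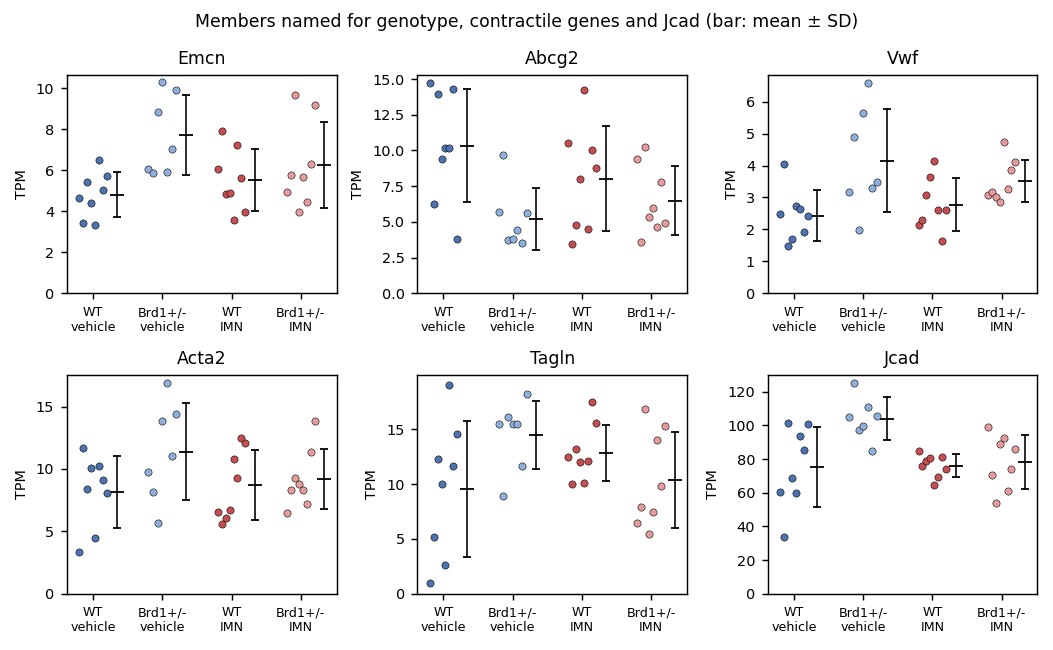
TPM in each mouse (vertical axes, starting at 0) by group (horizontal axes) for 3 members named for their difference between genotypes, the contractile genes Acta2 and Tagln, and Jcad, with the group mean and SD beside the points. For Vwf 6 of 7 Brd1+/- mice under vehicle and 8 of 8 under IMN lie above the WT median, and for Emcn 4 of 7 Brd1+/- vehicle mice lie above every WT vehicle mouse.

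The interaction of genotype and IMN, which asks whether IMN acted differently in Brd1+/- mice, called 0 members, where 3.74% of 25394 genes were called. By limma 3 members had an unadjusted p under 0.05, Tagln, Jcad and Slc16a1, beside 16.2% of all genes. Tagln, a protein of the smooth muscle actin cytoskeleton, had the largest value. Its levels were 0.985, 10.8 and 19.1 TPM in WT vehicle and 10.0, 12.3 and 17.4 TPM in WT IMN mice, and 8.88, 15.5 and 18.3 TPM in Brd1+/- vehicle and 5.40, 8.85 and 16.8 TPM in Brd1+/- IMN mice. The interaction of -1.20 had a 95% interval from -2.16 to -0.24 (limma, adjusted p = 0.262). With the 4 WT vehicle mice left out it was -0.36, from -0.98 to 0.26 (limma, n = 27, adjusted p = 0.999), the change with IMN in WT turned from 0.69 to -0.15, and the genotype difference under vehicle went from 0.84 to 0.0019. The Tagln gene overlaps Pcsk7 on the opposite strand, which had a median of 19.0 TPM, and whether the counting used strand is not given in the sources used here. Eng, Egfl7, Nos3 and Slc2a1 also overlap genes on the opposite strand, with medians of 0.577 to 5.21 TPM.

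The members did not move as 1 block across mice. With group means removed, the mean Pearson r was 0.145 over the 465 pairs of endothelial genes, 0.352 over the 15 pairs of pericyte genes and 0.656 over the 3 pairs of smooth muscle genes, beside 0.0684 over all pairs of genes tested. These r share the same 31 libraries and are a description. Between pericyte and smooth muscle genes the mean r was -0.106, with Atp13a5 and Myh11 lowest at -0.518. The closest tie was that of Acta2 and Myh11, both contractile proteins (Pearson r = 0.847, permutation p = 1e-05, adjusted p = 4e-05; Spearman rho = 0.806, permutation p = 1e-05, adjusted p = 4e-05; r = 0.774 without the 2 farthest mice). Rgs5 and Pdgfrb gave a Pearson r of 0.44 (permutation p = 0.0126, adjusted p = 0.0168; Spearman rho = 0.548, permutation p = 0.00157, adjusted p = 0.00314; r = 0.422 without the 2 farthest mice). For Cldn5 and Rgs5, an endothelial and a pericyte gene, the relation was not past the threshold (Pearson r = 0.215, permutation p = 0.245; Spearman rho = 0.208, permutation p = 0.259).

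Sox18 moved with Robo4 (r = 0.732), Cldn5, Nos3 (r = 0.690) and Esam (r = 0.668) within the groups. For Sox18 and Cldn5 Pearson r was 0.708 (permutation p = 2e-05, adjusted p = 5.33e-05) and Spearman rho 0.677 (permutation p = 4e-05, adjusted p = 0.000107), with 0.637 without the 2 farthest mice and 0.413 to 0.855 in single groups. Of all members Cldn5 had the highest mean r with the other endothelial genes, 0.299. Slco1a4, an anion carrier of the barrier, had the lowest at -0.0801, and it moved with Jcad (r = 0.590) and against Ly6c1 (r = -0.614). Tagln moved against Slc16a1 (r = -0.715).

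**Figure D5:**
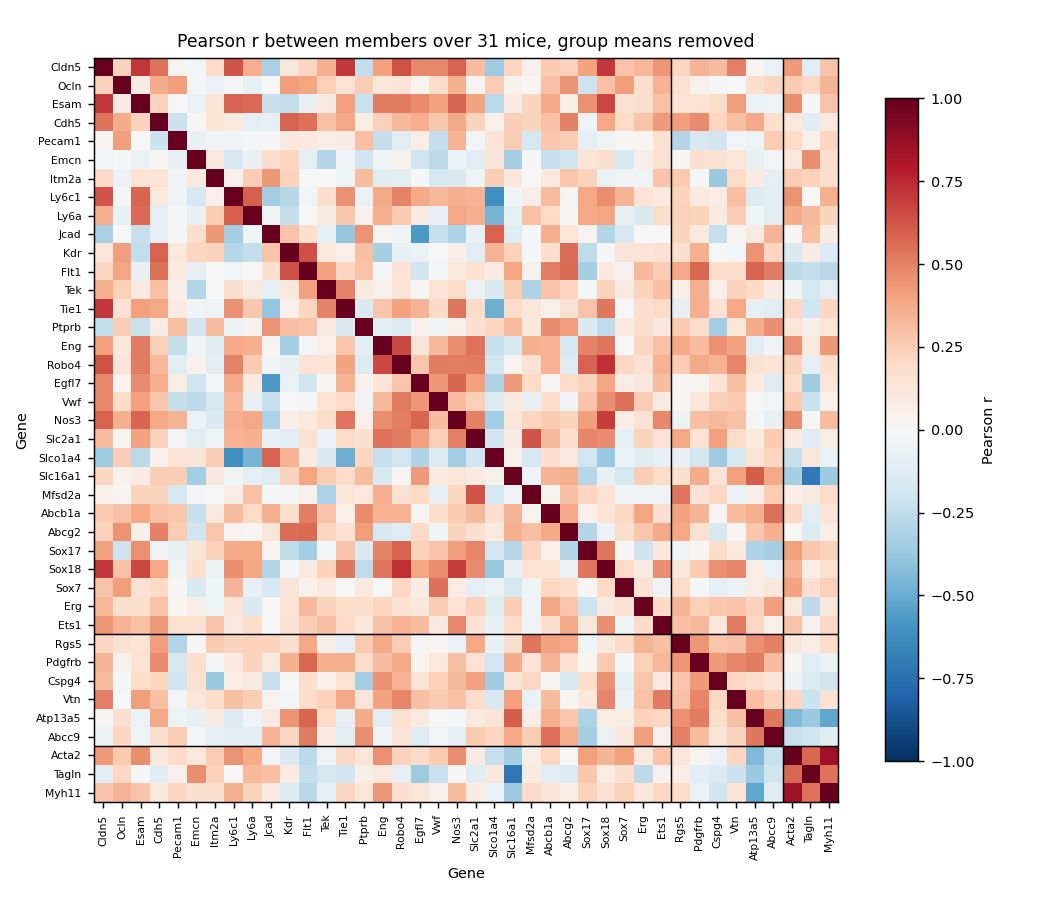
Pearson r of log2(TPM + 1) between the members over 31 mice with group means removed, as color from -1 to 1, with genes on both axes ordered as endothelial, pericyte and smooth muscle and black lines between these classes. The smooth muscle block (mean r 0.656) stands out, and a band around Cldn5, Sox18, Robo4 and Nos3 runs through the endothelial block.

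Further vascular genes were counted in 9 lists, read against the shares of all genes given above for each comparison. Those called were refitted without the 4 WT vehicle mice low in striatal markers, but not under median-of-ratios or quantile scaling. Of 20 barrier junction and transport genes, 3 fell with IMN in WT mice, 0 were called in Brd1+/- mice and 4 fell over both genotypes. Slc38a3, a glutamine carrier, had levels of 40.8, 46.2 and 51.4 TPM in WT vehicle and 34.5, 37.7 and 45.3 TPM in WT IMN mice. In Brd1+/- mice it had 39.2, 46.5 and 50.0 TPM under vehicle and 33.4, 39.9 and 48.1 TPM under IMN. It fell by 0.21 ± 0.05 (SE) over both genotypes (limma, n = 31, p = 0.000204, adjusted p = 0.0488). The organic anion carrier Slc22a8, the tricellular junction gene Lsr and the amino acid carrier Slc7a5 also fell in that fit, by 0.28, 0.28 and 0.22 (limma, n = 31, p = 0.000873, p = 0.00198 and p = 0.00331). Of 8 arterial genes the gap junction gene Gja5 rose, by 0.40 (limma, n = 31, p = 0.00176), from medians of 0.212 and 0.240 TPM in the WT and Brd1+/- vehicle groups to 0.496 and 0.734 TPM in the IMN groups.

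Of 15 genes of VEGF and angiopoietin signaling, 14 of them tested in each genotype, Vegfa and Vegfb fell with IMN in WT mice, 0 were called in Brd1+/- mice and 0 over both genotypes. Of 13 genes of PDGF and TGF-β signaling 2 fell with IMN in WT mice, Pdgfb and Pdgfa, and 0 were called in Brd1+/- mice. Of 10 Notch genes the target Hes1 fell with IMN in WT mice, and of 16 Wnt genes, 15 of them tested, the ligand Wnt7a rose. Of 13 basement membrane genes 1, Col4a1, fell with IMN in WT mice. Over both genotypes the Notch genes Hes1 and Jag2 and the ligand Pdgfb fell, and Wnt7a and the laminin chain Lamb1 rose. The lists of 7 venous genes, 6 of them tested, and of 12 other mural genes had 0 called with IMN in either genotype or in both together. With the 4 WT vehicle mice low in striatal markers left out, 0 of the 10 list genes called with IMN in WT mice were still called, and 3 of the 10 called over both genotypes were, Slc38a3, Slc22a8 and Gja5.

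Between genotypes under vehicle, Pdgfb fell from a median of 18.0 TPM in WT to 9.88 TPM in Brd1+/- mice (change -0.73, exact permutation p = 0.00451), and Pdgfa, Hes1, Plvap, Slc3a2, Tfrc, Col4a1 and Col4a2 fell as well. The Notch ligand Jag1 rose by 0.86, from 0.839, 1.74 and 2.74 TPM to 2.56, 3.78 and 5.84 TPM (exact permutation p = 0.000932; limma adjusted p = 0.0556), and the TGF-β family receptor Acvrl1 rose by 0.96 (limma, adjusted p = 0.0701). With the 4 mice low in striatal markers left out, Jag1 differed by 0.55 (exact permutation p = 0.0182), Pdgfb by -0.37 (exact permutation p = 0.0636) and Acvrl1 by 0.25 (exact permutation p = 0.376). Of the 10 genes of these lists called under vehicle, limma then called 2, Jag1 and Plvap, and all 10 kept their direction. Under IMN 0 genes of the 9 lists were called between genotypes. Several of these genes, among them Pdgfa, Hes1 and Vegfa, are also expressed by glia or neurons, and beside them 2 of 10 cortical neuron genes fell and 1 of 10 striatal genes, Penk, rose under vehicle. Of 10 microglia and macrophage genes and of 9 genes of perivascular fibroblasts and meninges, 1 each rose, Cd163 and Igf2. Col3a1 and Slc22a6 of the fibroblast list had group medians under 0.5 TPM in every group, as had Ttr, Folr1, Kcnj13, Tmem212 and Ccdc153 of the 8 choroid plexus and ependymal genes. The lists of 10 astrocyte, 10 oligodendrocyte and 8 oligodendrocyte precursor genes had 0 called in any comparison. Under vehicle between genotypes 0 of 10 oligodendrocyte genes (median -0.35) and 0 of 10 astrocyte genes (median -0.19) were above 0, beside -0.13 for all genes, while 10 of 10 microglia and macrophage genes (median 0.21) and 8 of 9 fibroblast and meninges genes (median 0.27) were. Their part in the differences of Emcn, Abcg2 and Vwf was not tested.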

How the data were processed

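RNA of CPu punches of 31 mice was sequenced. The deposited TPM values were made by the authors, whose processing notes name FastQC, Trimmomatic, HISAT2 2.1.0, StringTie 1.3.4 and GRCm38, and sum to 999787 to 999918 per mouse. TPM keeps no read depth, so that the counting precision of a value is unknown, and whether strand was used is not given in the sources used here. The table listed 52636 genes (52489 matched to GENCODE positions), and 0 columns were left unused.

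log2(TPM + 1) values were fitted with limma 3.58.1 (R 4.3.3; trended variance, two-sided, adjusted over all genes tested by Benjamini-Hochberg) for each pair of groups and for the interaction, with genes above 0.1 TPM in at least 7 mice. A gene was called at p under 0.01. The code was tested on simulated data. Single genes were also tested with exact permutation tests, two-sided, and relations across mice with 100000 permutations. Samples are separate mice, and the tests set differences between groups against the spread between mice. Litter was not a term in any fit. Results were recomputed with a pseudocount of 0.1, a mean of at least 1 TPM, no filter, median-of-ratios and quantile scaling, no variance trend, sample quality weights, 1 fit of all 4 groups, the mean of cortical or striatal neuron markers as a covariate, with the mouse number as a block and without each mouse. The fits over both genotypes or both treatments, the exact tests of members and the fits without 4 mice were added after the data were seen.

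The members, lists and tests were chosen with earlier results of these data known. Values are given for members called in a comparison and for Cldn5, Pecam1, Kdr, Slc2a1, Rgs5, Pdgfrb and Acta2, and for at most 3 called genes of each further vascular list and comparison. Genes named beyond this (among them Slc7a5, related genes, genes of correlations and those called only in an alternative) were picked after their values were seen. Promoter sequences are from RefSeq (GRCm38.p6).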

Additional observations from a re-analysis of the deposited data

Results flagged for a closer look

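Of the 68 gene and group combinations checked over 17 members, 2 held a mouse far from the rest of its group. About 1 in 20 such groups is marked by chance. Pecam1 was at 7.67 TPM in Brd1+/- IMN mouse 6 and at 10.8 to 13.5 TPM in the other 7 mice, with a gap of 0.605 of the range of the group. Sox18 was at 5.35 TPM in WT IMN mouse 6 and at 6.15 to 6.78 TPM in the other 7 mice, with a gap of 0.583 of the range.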

How the results depend on the processing

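Sox18 was called in every fit run for WT mice, Brd1+/- mice and both genotypes together, including those without any single mouse, and Vwf in each of the 11 alternatives of the fit over both treatments. Of the other alternatives, 80 counts or means kept within their limits and 35 moved. For the changes listed here the cause was not tested.

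Members called under vehicle between genotypes numbered 2, and 7 after median-of-ratios scaling, 9 after quantile normalization, 4 with sample quality weights, 4 with all 4 groups in one fit, 0 with the cortical neuron mean as covariate, 1 with the striatal neuron mean, 0 without the mice low in striatal markers and 1 to 3 without each mouse. For IMN in WT there were 3, and 5 without a filter, after median-of-ratios scaling, after quantile normalization and without a trend, 1 with the cortical mean, and 1 to 4 without each mouse. For IMN in Brd1+/- mice there were 4, 1 with the striatal mean and 2 to 4 without each mouse. The interaction had 0, 1 after quantile normalization, 2 with sample weights and 0 to 1 without each mouse. IMN over both genotypes had 8, and 5 after median-of-ratios scaling, with the cortical mean and without the mice low in striatal markers, and 6 to 9 without each mouse. Genotype over both treatments had 2, and 13 after median-of-ratios scaling, 12 after quantile normalization, 1 with either neuron mean and without the mice low in striatal markers, and 1 to 3 without each mouse. Genotype under IMN had 0 throughout. Single calls lost when 1 mouse was left out were those of Kdr (vehicle mouse 1, 2, 4 or 7 or IMN mouse 4, 5, 6 or 8) and Sox7 (vehicle mouse 1, 2, 5 or 7 or IMN mouse 1, 2, 4, 6, 7 or 8) in Brd1+/- mice, of Cldn5 (vehicle mouse 1, 5 or 7 or IMN mouse 1, 2, 3 or 6) and Egfl7 (vehicle mouse 2, 4 or 5 or IMN mouse 3 or 7) in WT mice, and of Abcg2 under vehicle (WT mouse 1, 3 or 7 or Brd1+/- mouse 3, 4 or 6). Over all mice those of Mfsd2a, Sox7 and Emcn were lost without 16, 15 and 15 of the 31 mice in turn.

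With the mouse number as a replicate block 2 members were called for IMN in Brd1+/- mice and 1 for the interaction, and counts stayed within 1.5 times elsewhere. The numbers are not a shared litter or batch in the labels, and same-numbered mice had correlations of -0.141 to 0.0615 between genotypes under vehicle, -0.189 to 0.191 under IMN, -0.395 to 0.409 for IMN in WT and -0.0689 to 0.213 for IMN in Brd1+/- mice. Of the mice, 0%, 12.5%, 6.25% and 35.7% correlated best with their own number, in the same order.

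For called members and the 7 class-defining genes the sign turned in the following fits. After median-of-ratios and quantile scaling the genotype difference under vehicle was 0.169 and 0.178 for Slc2a1 and 0.137 and 0.142 for Rgs5. Under IMN it was 0.00686 and 0.00129 for Slc2a1 and 0.0105 and 0.0114 for Rgs5. The change of Rgs5 with IMN in WT was 0.093 and 0.107, and its interaction -0.12 and -0.128, or -0.0128 with sample weights. With the cortical mean Slc2a1 under vehicle was 0.0286, and with the striatal mean Pdgfrb in Brd1+/- mice with IMN was 0.0287. Without the mice low in striatal markers Kdr under vehicle was -0.0207, and with IMN in WT Pdgfrb was -0.00387 and Acta2 -0.0867. Over all 40 members the sign turned in that setting for 3 under vehicle, 6 with IMN in WT, 4 in the interaction, 8 with IMN over both genotypes and 6 between genotypes over both treatments, among them Tagln, Jcad and Emcn with IMN in WT. Without each mouse the ranges were, for IMN in Brd1+/-, -0.0646 to 0.027 for Pdgfrb and -0.0706 to 0.00975 for Rgs5. For IMN in WT they were -0.0384 to 0.183 for Acta2, -0.0188 to 0.0746 for Pdgfrb and -0.064 to 0.0045 for Rgs5. For genotype they were -0.107 to 0.00619 for Pecam1 under IMN, and -0.0813 to 0.000788 for Rgs5 and -0.0826 to 0.0235 for Slc2a1 under vehicle. For the interaction they were -0.0906 to 0.0129 for Pdgfrb, -0.0368 to 0.0453 for Rgs5 and -0.0637 to 0.0424 for Slc2a1.

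With a pseudocount of 0.1 the endothelial mean was 3.12, 3.18, 3.04 and 3.06 and the mural mean 2.78, 3.08, 2.89 and 3.00 in WT vehicle, Brd1+/- vehicle, WT IMN and Brd1+/- IMN mice, and the endothelial mean of WT vehicle mice was 3.23 after median-of-ratios and 3.22 after quantile scaling. The median change of the endothelial genes with IMN in WT mice turned from -0.05 to 0.05 after either scaling.

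Over all genes, calls ranged across these settings from 205 to 6137 for genotype under vehicle (3153 as reported), 97 to 231 under IMN (164), 241 to 4798 for IMN in WT (1639), 281 to 508 in Brd1+/- mice (422), 132 to 3458 for the interaction (951), 658 to 1470 for IMN over both genotypes (1393) and 450 to 2690 for genotype over both treatments (2566). The lowest counts under vehicle and for IMN in WT came without the mice low in striatal markers, with fewer mice, and the highest with sample quality weights. At an FDR of 5% the ranges were 0 to 6854, 0 to 2, 1 to 4857, 0 to 7, 0 to 2624, 31 to 184 and 1 to 419, in the same order. Without each mouse in turn, genes called numbered 2036 to 5154, 127 to 252, 905 to 3576, 306 to 498, 546 to 2571, 1093 to 2066 and 1811 to 3681, and those at an FDR of 5% 0 to 5482, 0 to 1, 1 to 2459, 0 to 6, 0 to 0, 43 to 368 and 1 to 2653. Of the genes called, 89.2% were lower under vehicle and 55.6% after median-of-ratios scaling, 73.2% and 54.2% for genotype under IMN, 80.6% and 49.9% for IMN in WT, 76.2% and 50.7% for IMN over both genotypes, 92.3% and 57.2% for genotype over both treatments, and 20.8% and 49.0% for the interaction.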

Other observations

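Among genes that are not members, 3 of 15 Wnt genes tested were lower in Brd1+/- than in WT mice over both treatments and 0 were higher, where 9.33% of all genes were called as lower. Axin2, a target and inhibitor of the pathway, differed by -0.30, Ctnnb1, which encodes beta-catenin, by -0.23 and the ligand Wnt7b by -0.38 (limma, n = 31, adjusted p = 0.0783, 0.0793 and 0.0961). Of 13 basement membrane genes Lamb1, a laminin chain, was higher by 0.48 and Col4a2, a collagen IV chain, lower, at -0.42 (limma, n = 31, adjusted p = 0.0791 and 0.0771). Lamb1 was also 0.42 higher with IMN over both genotypes (limma, n = 31, adjusted p = 0.182). Without the 4 WT vehicle mice low in striatal markers none of these calls held, and each kept its direction. These genes were not refitted under the other scalings, and the median of all genes between genotypes was -0.07.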
